A study of Mus musculus with 6 samples.

Results

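The 53 genes described here encode the machinery that copies DNA, from the proteins that mark and license replication origins to those that synthesise nucleotides and rebuild chromatin behind the fork. They were a list chosen with earlier results of these data known, and are grouped here into 14 roles. Each was read by the probe sets that the array's annotation gives to that gene alone, taking the probe set with the highest mean where there was a choice. All 53 were measured, out of 19938 genes tested on the array. Of these, 51 had 1 such probe set, and Pcna and Tk1 had 2.

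Total RNA from 6 tumours was hybridised to Affymetrix arrays, 1 array per tumour. All of them came from glioma cells driven by a mutant EGFR, the receptor tyrosine kinase for epidermal growth factor, and placed under the skin of the flank of Nu/Nu mice, a nude strain that lacks a thymus and mature T cells but keeps macrophages and other innate cells. The 3 control gliomas are numbered 1, 2 and 4, and the 3 relapsed gliomas, which regrew after extinction of the mutant receptor, are numbered 1, 2 and 3. Some mice drank doxycycline at 2 g/L, but the labels do not say which group did. Tumours of both groups were taken at a volume of 2 cm3, in the flank and not in the brain. The labels give no age or EGFR form, and do not say whether the glioma cells were 1 clone or whether each tumour came from its own mouse, so p-values measure only the spread between these samples. Egfr, the mouse gene of the targeted receptor, did not pass the test (log2 difference 0.24 ± 0.30, SE, adjusted p = 0.658 in limma), and whether its probe set reads the mutant form is not given in the sources used here.

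Replication starts at origins bound by the origin recognition complex (ORC). Cdc6 and Cdt1 then load the ring-shaped MCM2-7 helicase there, and geminin (Gmnn) blocks Cdt1 so that no origin is loaded again in the same cell cycle. Kinases then switch the helicase on with Cdc45 and GINS, polymerase alpha-primase lays down primers, and polymerases delta and epsilon extend them. Many of these genes are transcribed late in the gap phase before DNA synthesis under E2F factors, which the retinoblastoma protein holds in check, so their transcripts are widely used as a sign of cycling cells in tumours.

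All values are log2 intensities as the authors deposited them, or differences of these. They are listed in the order control 1, 2 and 4, then relapsed 1, 2 and 3. A gene was called when its adjusted p was under 0.05 in limma, a linear model with moderated variances, after Benjamini-Hochberg adjustment over all 19938 genes. Errors of differences are standard errors (SE) from that model with 3 arrays per group, and intervals are 95% intervals. All 53 genes had means in both groups above 5.66, the median of the probe sets not listed with a gene.

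Among the 53 DNA replication genes, 6 were lower in relapsed gliomas by the test and 47 were not called. Cdt1, Mcm3, Mcm10, Pold2, Ccne1 and Uhrf1 fell, by between 1.39-fold and 2.09-fold. They belong to 6 of the 14 roles, and the other 8 roles had no called gene. These 6 called genes are 11.3% of the 53, against 5.47% of all genes called lower. No member was called higher in limma, against 3.69% of all genes, and the count was also 0 with the robust, trended form of the test, which called 5 of the 6 lower. At an unadjusted p under 0.05, 18 members (34.0%) were lower, beside 15.4% of all genes, and 5 (9.43%) were higher, beside 11.2%. The median difference of the 53 genes was -0.22 (quartiles -0.48 and 0.06), beside -0.02 over all genes (quartiles -0.18 and 0.14). In bulk tumours, fewer cells of a type and less RNA per cell cannot be told apart.

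The shift was not shared by all members. The relapsed mean was lower for 37 of the 53, or 69.8%, beside 55.1% of all genes, and higher for 16. These counts were 36 and 17 after quantile normalization and 40 and 13 with each array centred on its median. The 3 relapsed arrays all lay below the 3 control arrays for 20 members (37.7%, beside 17.8% of all genes), and all lay above them for 7 members (13.2%, beside 13.0%). Differences ran from -1.07 for Cdt1 to 0.69 for Orc4, with 23 members lower by at least 1.2-fold, 6 higher by at least 1.2-fold and 24 in between. Among the 47 genes that were not called, the interval stayed within 2-fold in both directions for 41, lay wholly below 0 for 12, wholly above 0 for 5, and included 0 for 30.

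**Figure D1:**
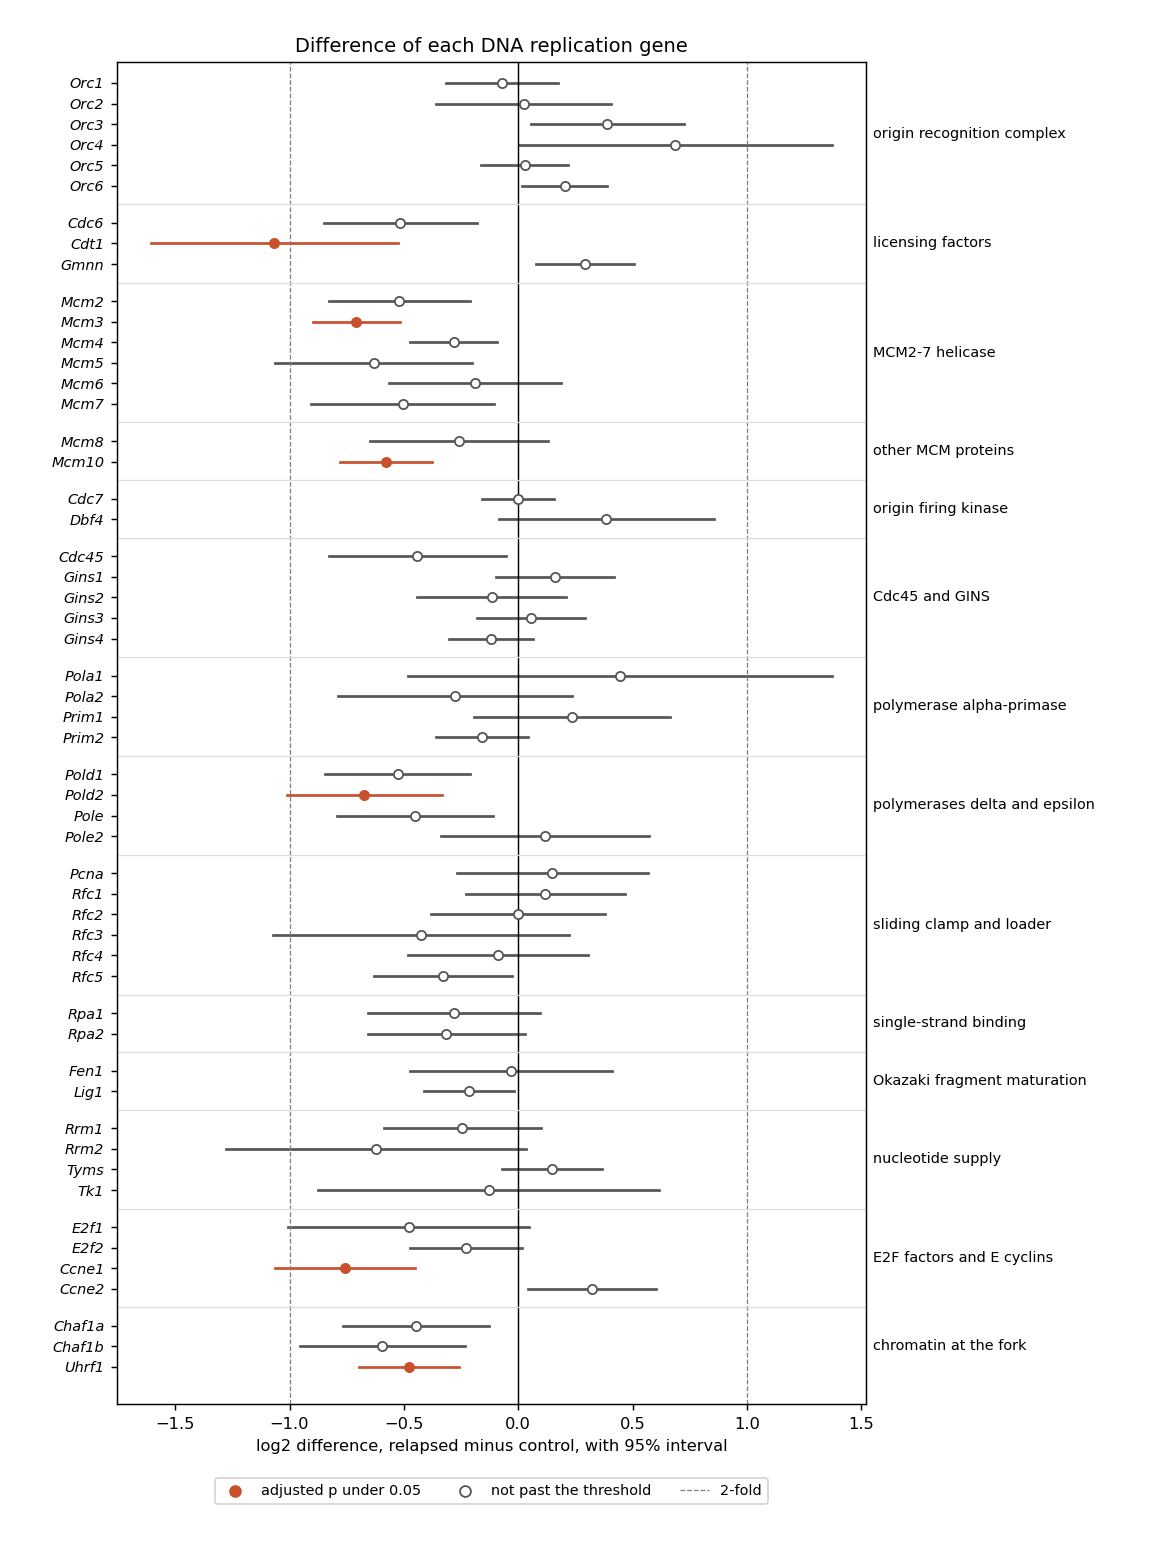
Log2 difference, relapsed minus control, of each of the 53 DNA replication genes with its 95% interval from limma (3 arrays per group), grouped by role; filled points passed an adjusted p under 0.05 and dashed lines mark 2-fold. The 6 filled points, from Cdt1 at -1.07 to Uhrf1 at -0.48, all lie below 0, and Orc4 at 0.69 lies farthest above it.

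The 6 subunits of the origin recognition complex did not share the lower levels. Their relapsed means were higher for 5 of 6, although Orc2 and Orc5, with differences of 0.02 and 0.03, turned lower with each array centred on its median. Without control 2 they also turned lower, to -0.11 and -0.04. The mean of the 6 subunits relative to their average was -0.01, -0.29 and -0.01 in controls and 0.02, 0.10 and 0.19 in relapsed tumours. Much of the gap between the groups thus lay on control 2. Orc3, an integral subunit of the complex and the member of this role with the smallest p, read 9.92, 9.67 and 9.94 in controls and 10.30, 10.00 and 10.40 in relapsed tumours. Every relapsed array lay above every control, with relapsed 2 nearest to them. The difference of Orc3 was 0.39 ± 0.13 (interval 0.05 to 0.72), with an adjusted p of 0.140 in limma. Orc4 read 8.59, 7.87 and 8.61 in controls and 8.64, 9.28 and 9.21 in relapsed tumours. The groups were separate, but relapsed 1 lay within 0.1 of control 1 and control 4, and without control 2 the difference of 0.69 became 0.44. Orc6 also had separate groups, with a difference of 0.20, and Orc1, the ATPase that is lost from the complex as the cell cycle proceeds, differed by -0.07. None of the 6 was called.

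The licensing factors had differences in both directions. Cdt1 had the largest difference of all 53 genes, reading 9.75, 9.81 and 9.56 in controls and 9.11, 8.40 and 8.41 in relapsed tumours. Relapsed 2 and relapsed 3 were lower than relapsed 1, and no relapsed array reached a control. Cdt1 fell by 1.07 ± 0.22 (interval -1.61 to -0.53), or 2.09-fold, at an adjusted p of 0.0428 in limma, and it was the member that passed 2-fold. Cdc6, the ATPase that works with Cdt1 in loading the helicase, read 8.05, 7.77 and 7.76 in controls and 7.51, 7.39 and 7.13 in relapsed tumours. Its groups were also separate, but its difference of -0.52 ± 0.13 was not called, with an adjusted p of 0.0752 in limma. Gmnn, the inhibitor of Cdt1, read 6.08, 5.84 and 5.91 in controls and 6.19, 6.19 and 6.32 in relapsed tumours. Here each relapsed array was above each control, the reverse of its target, and the difference of 0.29 ± 0.09 was not called (adjusted p = 0.0987 in limma).

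The 6 subunits of the MCM2-7 helicase all had lower means in relapsed tumours, also under the other scalings. Mcm3 was the called subunit. It read 9.67, 9.70 and 9.47 in controls and 8.91, 8.91 and 8.90 in relapsed tumours. The relapsed arrays were nearly identical for Mcm3, well under the lowest control. Its difference was -0.71 ± 0.08 (interval -0.90 to -0.52), or 1.63-fold lower, with the smallest adjusted p of the 53 genes, 0.0131 in limma. Groups were separate for Mcm2 (-0.52), Mcm4 (-0.28), Mcm5 (-0.63) and Mcm7 (-0.51) as well, with adjusted p of 0.0609, 0.0815, 0.0833 and 0.119 in limma. Mcm5, which read 10.05, 10.41 and 10.06 in controls and 9.83, 9.30 and 9.49 in relapsed tumours, had its lowest value on relapsed 2, as did Mcm2, Mcm4, Mcm6 and Mcm7. Mcm6 was the subunit whose groups overlapped, because control 2, at 9.65, lay below relapsed 1 and relapsed 3, at 9.76 and 9.79. The mean of the 6 subunits relative to their average over the arrays was 0.26, 0.32 and 0.13 in controls and -0.11, -0.38 and -0.22 in relapsed tumours.

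Mcm10, which helps to turn the loaded helicase into a moving fork, fell by 0.58 ± 0.08 (interval -0.78 to -0.38), or 1.49-fold. It read 8.16, 8.28 and 8.14 in controls and 7.74, 7.56 and 7.53 in relapsed tumours, and its adjusted p was 0.0195 in limma. Both groups were tight and separate. Mcm8, a paralog that acts in recombination repair rather than in the replicative helicase, had overlapping groups and a difference of -0.26.

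**Figure D2:**
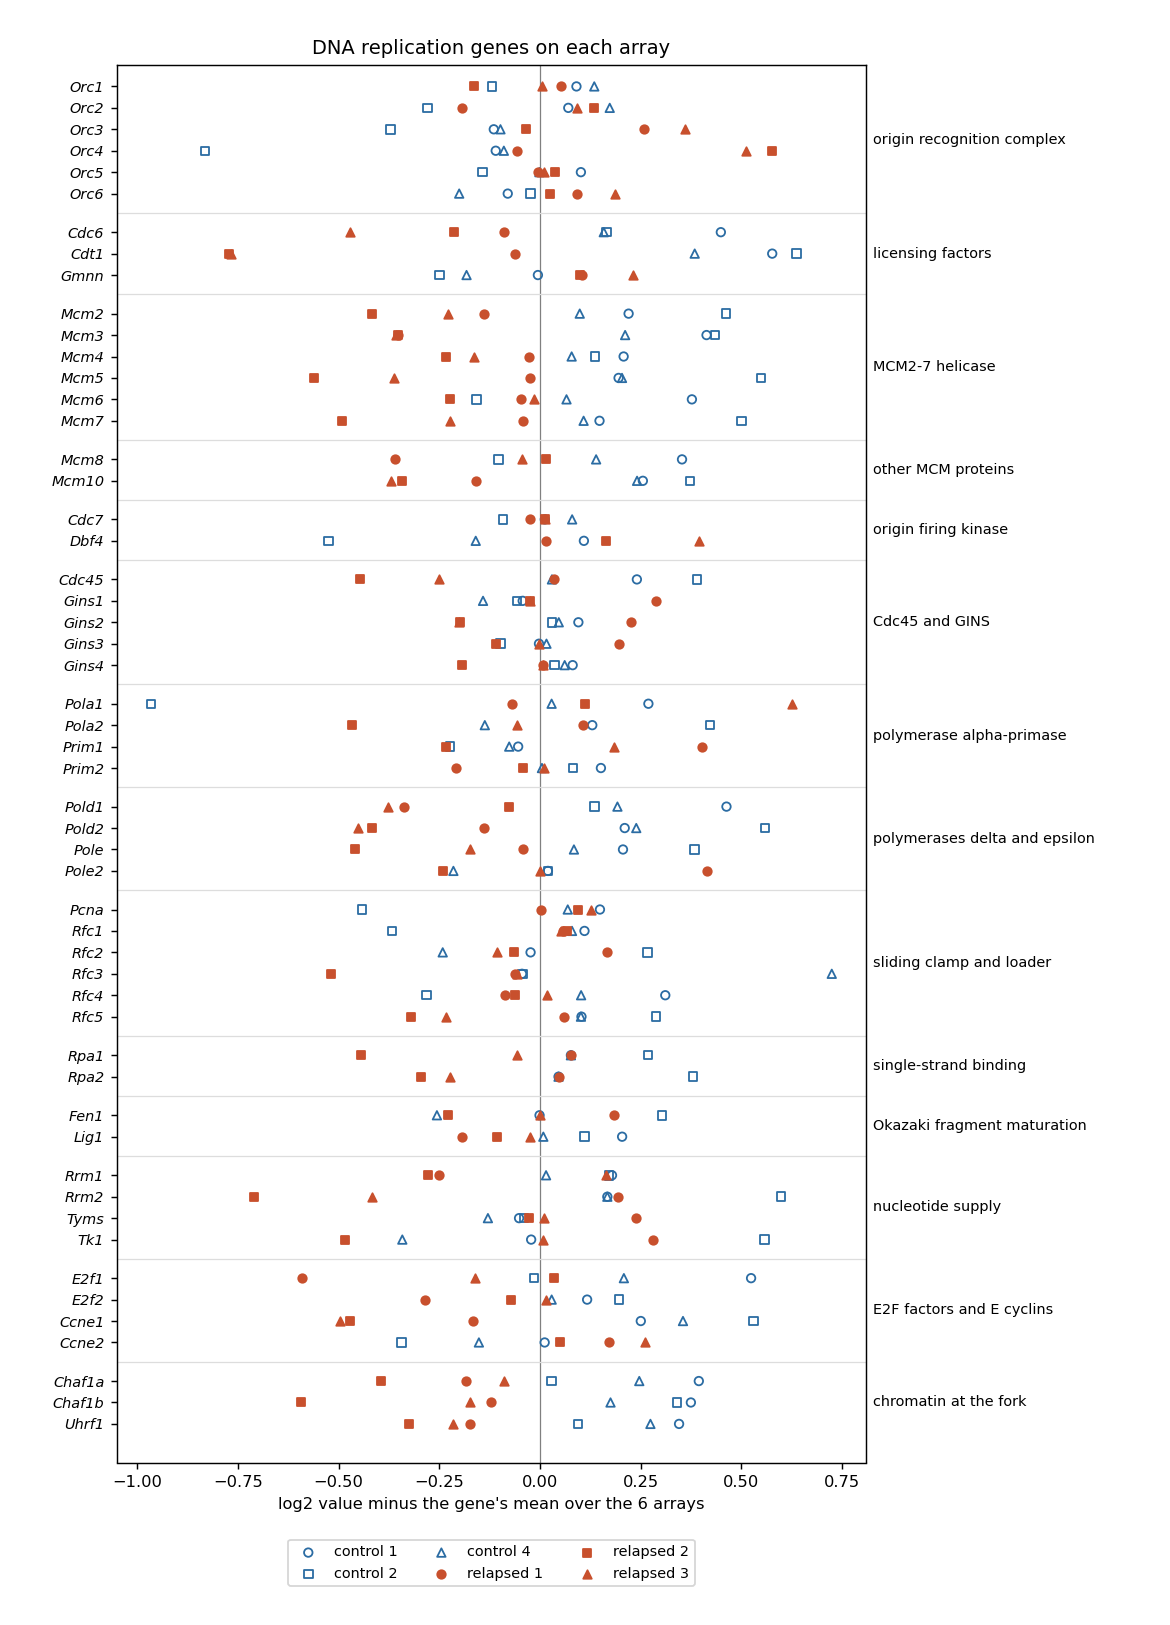
Log2 value of each of the 53 DNA replication genes on each array, relative to that gene's average of 6 arrays, grouped by role; open symbols are the 3 controls and filled symbols the 3 relapsed tumours. Relapsed 2 (filled squares) was the lowest array for 24 genes, and control 2 (open squares) was the highest for 19 and the lowest for 12.

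The promoters of these genes can be set beside their levels, because E2F binding sites are a shared feature of many replication genes. RefSeq sequences on build GRCm38.p6, reaching 250 bases upstream of the annotated start, were matched for 44 of the 53 genes. Those of Mcm3, Mcm5 and Mcm6 are shown because these subunits of a single ring differed in their matches, and Mcm3 was the called subunit, and that of Uhrf1 because it was the called gene whose window held a match. Cdt1 is shown as the gene with the largest difference. Capitals mark the E2F-type letters TTCCCGC and its variants, namely TTGGCGC, followed by TTCGCGC, and lastly TTGCCGC, on either strand. The windows are chr1:20820313-20820562 (minus strand) for Mcm3, chr8:75109259-75109508 (plus strand) for Mcm5, chr1:128359706-128359955 (minus strand) for Mcm6, chr17:56303087-56303336 (plus strand) for Uhrf1 and chr8:122567765-122568014 (plus strand) for Cdt1.
Mcm3: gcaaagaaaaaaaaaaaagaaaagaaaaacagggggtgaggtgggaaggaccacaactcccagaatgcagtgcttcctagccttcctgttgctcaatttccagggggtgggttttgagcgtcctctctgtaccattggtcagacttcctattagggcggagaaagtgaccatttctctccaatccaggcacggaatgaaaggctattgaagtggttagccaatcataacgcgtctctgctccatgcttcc
Mcm5: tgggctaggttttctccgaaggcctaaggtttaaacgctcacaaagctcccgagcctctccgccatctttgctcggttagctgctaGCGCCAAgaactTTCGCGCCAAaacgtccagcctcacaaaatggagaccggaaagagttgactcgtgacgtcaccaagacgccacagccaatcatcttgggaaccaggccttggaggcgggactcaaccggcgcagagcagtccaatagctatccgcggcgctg
Mcm6: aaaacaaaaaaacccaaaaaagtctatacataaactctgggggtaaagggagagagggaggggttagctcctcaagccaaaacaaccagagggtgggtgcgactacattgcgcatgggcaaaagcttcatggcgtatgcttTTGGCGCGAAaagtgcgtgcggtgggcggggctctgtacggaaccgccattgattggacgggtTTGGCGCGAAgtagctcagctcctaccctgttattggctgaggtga
Uhrf1: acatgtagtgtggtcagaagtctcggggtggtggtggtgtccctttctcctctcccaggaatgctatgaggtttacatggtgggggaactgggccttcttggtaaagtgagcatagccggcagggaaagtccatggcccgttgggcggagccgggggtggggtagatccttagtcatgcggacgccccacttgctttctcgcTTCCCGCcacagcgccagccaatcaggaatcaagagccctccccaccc
Cdt1: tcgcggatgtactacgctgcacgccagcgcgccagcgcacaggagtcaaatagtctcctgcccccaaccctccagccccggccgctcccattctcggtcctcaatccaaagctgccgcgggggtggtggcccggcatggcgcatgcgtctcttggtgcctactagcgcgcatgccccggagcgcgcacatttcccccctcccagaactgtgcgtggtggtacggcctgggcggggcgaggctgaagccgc

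The Mcm6 window held 4 matches in 2 overlapping groups, nearest 37 bases upstream of the start, and the Mcm5 window held 3, nearest 143 bases upstream. The Uhrf1 window held 1, nearest 42 bases upstream, and those of Mcm3 and Cdt1 held none. Over the 44 genes, 16 windows (36.4%) had at least 1 match, beside 8.03% of the windows of all 27025 genes and 10.1% of those of protein-coding genes. Among the members, a match was found for 1 of 6 called genes, for 11 of 25 genes with a lower mean that were not called, and for 4 of 13 genes with a higher mean. The letters CCAAT on either strand, the core of the site bound by factor NF-Y, were found in 25 of the 44 windows (56.8%), beside 34.5% of all windows, and in 3 places in the Mcm3 window. A match in letters is a description and not a binding site.

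Of the kinase that fires licensed origins, neither subunit was called. Dbf4, its regulatory subunit, read 9.06, 8.42 and 8.79 in controls and 8.96, 9.11 and 9.34 in relapsed tumours. Relapsed 1 lay below control 1, so the groups overlapped, and the difference was 0.38 ± 0.19 (interval -0.09 to 0.85, adjusted p = 0.271 in limma). Cdc7, the catalytic subunit, ranged from 6.77 to 6.94 over the 6 arrays, with an interval from -0.16 to 0.16.

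Cdc45 and the 4 GINS subunits, which join MCM2-7 to form the active helicase, were not called. Cdc45 read 8.81, 8.96 and 8.59 in controls and 8.60, 8.12 and 8.31 in relapsed tumours. Relapsed 1 and control 4 were nearly equal, and the difference of -0.44 ± 0.16 (interval -0.83 to -0.05) had an adjusted p of 0.147 in limma. Differences of Gins1, Gins2, Gins3 and Gins4 were 0.16, -0.12, 0.06 and -0.12. All 3 relapsed arrays lay above the controls for Gins1 and below them for Gins4, but by narrow margins. For Gins1, control 1 read 6.89 and relapsed 2 and relapsed 3 both read 6.91. Without relapsed 1 its difference was 0.06. For Gins4, control 2 read 10.26 and relapsed 1 and relapsed 3 both read 10.23. Their intervals, -0.10 to 0.42 and -0.30 to 0.06, included 0, so a direction was not resolved for either.

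Polymerase alpha-primase, which starts each new strand, had no called gene among 4. Prim2, the regulatory primase subunit, had the smallest p of this role. It read 10.07, 10.01 and 9.93 in controls and 9.71, 9.88 and 9.93 in relapsed tumours. Control 4 and relapsed 3 were nearly equal, and its difference was -0.16 ± 0.08 (interval -0.36 to 0.04, adjusted p = 0.283 in limma). Pola1, the catalytic polymerase subunit, had the widest interval of the members. Control 2 read 7.56 for Pola1, far below the 8.80 and 8.56 of the other controls, and its difference of 0.44 ± 0.37 became 0.07 without that array. Pola2 and Prim1 differed by -0.28 and 0.24, and both had overlapping groups.

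For the polymerases that copy most of the genome, 1 of 4 genes was called, and the groups were separate for 3. Pold2, the regulatory subunit of polymerase delta, was the called gene. It read 11.00, 11.35 and 11.03 in controls and 10.65, 10.38 and 10.34 in relapsed tumours. Control 2 was the highest array and relapsed 1 the nearest of the relapsed arrays to the controls. Pold2 fell by 0.67 ± 0.13 (interval -1.01 to -0.34), or 1.59-fold, at an adjusted p of 0.0423 in limma. Pold1, the catalytic subunit of polymerase delta, read 8.87, 8.55 and 8.60 in controls and 8.07, 8.33 and 8.03 in relapsed tumours, with a difference of -0.53 ± 0.13 and an adjusted p of 0.0626 in limma. Pole, the catalytic subunit of polymerase epsilon, read 8.98, 9.16 and 8.86 in controls and 8.73, 8.32 and 8.60 in relapsed tumours. Its groups were separate too, and its difference of -0.45 ± 0.14 had an adjusted p of 0.107 in limma. Pole2, an accessory subunit of the same enzyme, differed by 0.12 with overlapping groups.

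The sliding clamp Pcna, which tethers the polymerases, was not called. It read 11.91, 11.31 and 11.83 in controls and 11.76, 11.85 and 11.88 in relapsed tumours. Control 2 was the low array and the other 5 lay within 0.2 of each other. Its difference was 0.15 ± 0.17. The other probe set of Pcna gave 0.15, but its values equalled those of the first on control 4, relapsed 1 and relapsed 3. They were nearly equal on the other arrays, so it is not a separate reading. Rfc5, a subunit of the clamp loader, read 10.71, 10.89 and 10.70 in controls and 10.66, 10.28 and 10.37 in relapsed tumours. The groups of Rfc5 were separate by a narrow margin at relapsed 1, and its difference was -0.33 ± 0.12 (interval -0.63 to -0.03, adjusted p = 0.158 in limma). The other loader subunits, Rfc1 to Rfc4, had differences from -0.42 to 0.12 and none was called. Rfc3, at -0.42, rested on control 4, which read 10.47 where the other 2 controls read 9.70, and without that array its difference was -0.17.

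Rpa1 and Rpa2, subunits of the protein that coats single-stranded DNA, had differences of -0.28 and -0.32. Rpa2 read 9.11, 9.44 and 9.11 in controls and 9.11, 8.77 and 8.84 in relapsed tumours. Control 1, control 4 and relapsed 1 had equal deposited values for Rpa2, so the groups touched, and the SE was 0.14 (interval -0.66 to 0.03, adjusted p = 0.221 in limma). Equal values on at least 2 arrays occurred for 9 of the 53 genes (17.0%), beside 38.9% of all genes.

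Genes that finish the lagging strand and supply nucleotides were not called. Lig1, the ligase that seals Okazaki fragments, read 9.17, 9.07 and 8.97 in controls and 8.77, 8.86 and 8.94 in relapsed tumours. Its groups were separate by a margin of under 0.1, between control 4 and relapsed 3, and the difference was -0.22 ± 0.08 (interval -0.41 to -0.02, adjusted p = 0.156 in limma). Fen1, the flap nuclease that acts before the ligase, differed by -0.03 with overlapping groups. Rrm2, the regulated subunit of ribonucleotide reductase, read 10.37, 10.81 and 10.37 in controls and 10.40, 9.50 and 9.79 in relapsed tumours. Relapsed 2 and relapsed 3 were low and relapsed 1 stood among the controls. Its difference was -0.62 ± 0.26 (interval -1.28 to 0.03, adjusted p = 0.207 in limma). Rrm1, the large subunit, and Tk1, the salvage thymidine kinase, differed by -0.24 and -0.13, and Tyms, which makes thymidylate, by 0.15. Every relapsed array lay above every control for Tyms, but control 2 at 9.41 and relapsed 2 at 9.42 were nearly equal. The interval of Tyms, -0.07 to 0.37, included 0. The other probe set of Tk1 gave -0.26.

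Among the regulators, the E cyclins, which activate the kinase that drives entry into DNA synthesis, had differences of opposite sign. Ccne1 read 9.39, 9.67 and 9.50 in controls and 8.97, 8.67 and 8.64 in relapsed tumours. The highest relapsed array, relapsed 1, stayed clear of the lowest control, control 1. Ccne1 fell by 0.76 ± 0.12 (interval -1.06 to -0.45), or 1.69-fold, at an adjusted p of 0.0266 in limma. Ccne2 read 7.97, 7.61 and 7.80 in controls and 8.13, 8.01 and 8.22 in relapsed tumours. For this cyclin each relapsed array was above each control, with a difference of 0.32 ± 0.11 that was not called (adjusted p = 0.142 in limma). E2f1, an activating E2F factor, read 10.04, 9.50 and 9.72 in controls and 8.92, 9.55 and 9.35 in relapsed tumours. Relapsed 2 lay above control 2, so its groups overlapped, and its difference was -0.48 ± 0.21 with an adjusted p of 0.224 in limma. E2f2, a related activator, differed by -0.23, with groups barely separate between control 4 at 7.51 and relapsed 3 at 7.49.

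Of the 3 genes that rebuild chromatin at the fork, Uhrf1 was called and Chaf1a and Chaf1b were not, and for all 3 the relapsed arrays lay below the controls. Uhrf1, which brings the maintenance DNA methyltransferase to newly copied DNA, read 9.61, 9.36 and 9.54 in controls and 9.09, 8.94 and 9.05 in relapsed tumours. Control 2 was the lowest control and still lay above all relapsed arrays. Uhrf1 fell by 0.48 ± 0.09 (interval -0.69 to -0.26), or 1.39-fold, at an adjusted p of 0.0345 in limma. Chaf1a and Chaf1b, subunits of the histone chaperone CAF-1, had differences of -0.45 ± 0.13 and -0.59 ± 0.14, not called at adjusted p of 0.0925 and 0.0656 in limma. Chaf1b read 9.11, 9.08 and 8.91 in controls and 8.62, 8.14 and 8.56 in relapsed tumours. Its lowest array was relapsed 2, as it was for Chaf1a and Uhrf1.

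**Figure D3:**
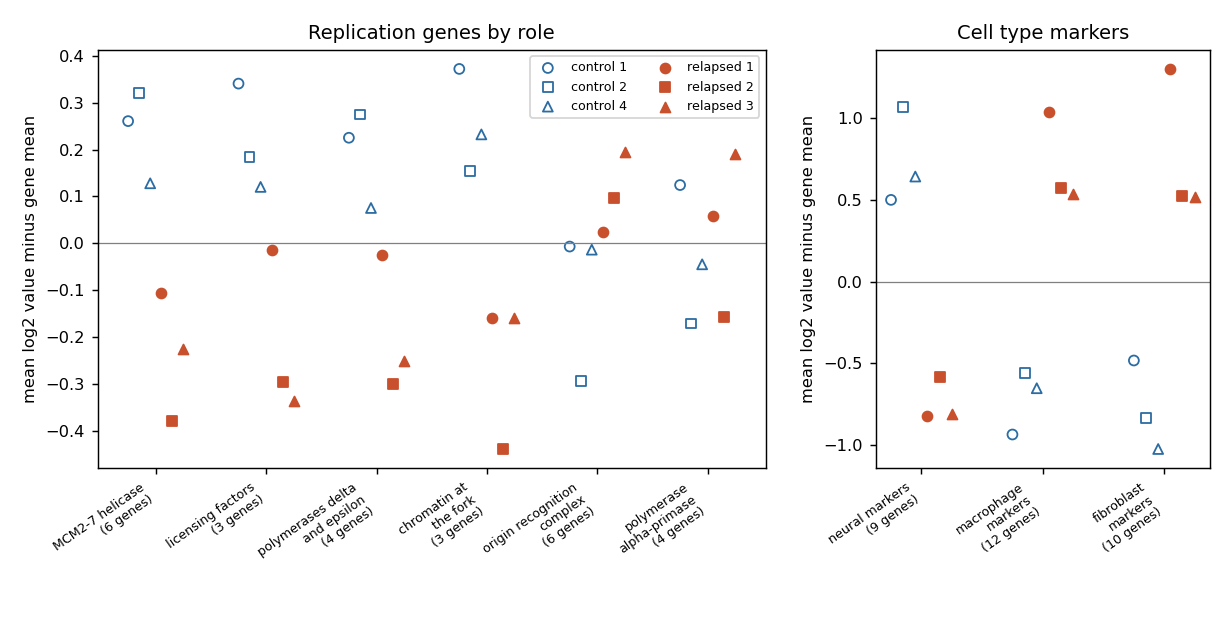
Mean, over the genes of a role, of log2 values relative to each gene's average of 6 arrays (left), and the same for 3 marker lists (right, with a wider axis), for each of the 3 control (open) and 3 relapsed (filled) tumours. The MCM2-7 helicase was at 0.13 to 0.32 in controls and -0.38 to -0.11 in relapsed tumours, and the origin recognition complex at -0.29 to -0.01 and 0.02 to 0.19.

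Single arrays weighed on the calls. With each array left out in turn, limma called 1, 2 and 1 members lower without control 1, 2 and 4, and 4, 0 and 0 without relapsed 1, 2 and 3. The share of all genes called lower in the same fits was 1.38%, 1.98%, 0.722%, 2.98%, 1.24% and 0.858%. Mcm3 kept its call in 4 of the 6 fits, Cdt1, Mcm10, Ccne1 and Uhrf1 in 1 each, and Pold2 in none. The groups of these 6 genes did not overlap, so the sign of their differences could not turn with 1 array left out. The difference of Mcm3 ran from -0.78 to -0.67, that of Cdt1 from -1.30 to -0.95 and that of Pold2 from -0.77 to -0.56. Relapsed 2 was the lowest array for 24 of the 53 genes (45.3%), beside 14.9% of all genes, and the median difference of the members was -0.13 without it. Without control 2, the highest array for 19 members and the lowest for 12, the median difference was -0.20.

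**Figure D4:**
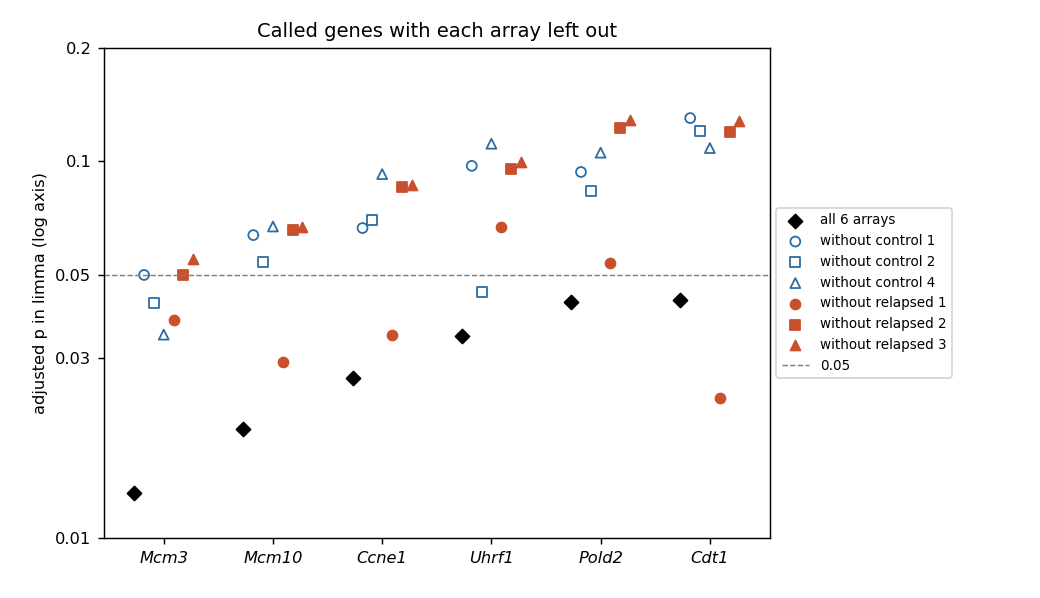
Adjusted p in limma (log axis) of the 6 called DNA replication genes, with all 6 arrays (diamonds) and with each array left out in turn (other symbols); the dashed line is 0.05. All diamonds lie below the line, from 0.0131 for Mcm3 to 0.0428 for Cdt1, whereas without relapsed 3 (filled triangles) all 6 genes lie above it.

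Other genes of the pathway, from a further list of 60 of which 58 were measured, were called in both directions at shares near those of all genes. By limma 4 were called lower (6.90%, beside 5.47% of all genes) and 3 higher (5.17%, beside 3.69%), and the median difference was -0.05. Ticrr, which brings origin firing under cyclin-dependent kinase control, fell by 1.02 ± 0.12 (adjusted p = 0.0156 in limma), reading 8.59, 8.21 and 8.55 in controls and 7.40, 7.37 and 7.54 in relapsed tumours. Timeless, part of the fork protection complex, fell by 0.66 ± 0.13 (adjusted p = 0.0381 in limma). Rpa3, the small subunit of the single-strand binding protein, rose by 0.95 ± 0.12 (adjusted p = 0.0168 in limma), reading 8.53, 8.51 and 8.51 in controls and 9.64, 9.22 and 9.54 in relapsed tumours. Its 3 relapsed arrays stood above all controls, whereas Rpa1 and Rpa2, its partners, had lower relapsed means. Rb1, the retinoblastoma protein that restrains E2F factors, rose by 0.75 ± 0.11 (adjusted p = 0.0200 in limma), reading 9.27, 9.09 and 9.42 in controls and 9.94, 9.97 and 10.13 in relapsed tumours. The other called genes were Dnmt1 (-0.59), the methyltransferase that Uhrf1 recruits, Chtf18 (-0.49), of an alternative clamp loader, and Rbl2 (0.39), a relative of Rb1. These 3 were named after their values were seen.

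Genes of mitosis and DNA repair were counted in the same fit, where 5.47% of all genes were called lower and 3.69% higher. Of 50 measured mitotic genes 6 were called lower (12%) and 1 higher (2%), with a median difference of -0.25. Of 45 measured repair genes 7 were called lower (15.6%) and 1 higher (2.22%), with a median of -0.11. Differences between these lists and the 53 genes were not tested. In limma the mitotic kinase Plk1 fell by 0.92 ± 0.16 (adjusted p = 0.0324), the spindle kinase Aurka by 0.71 ± 0.09 (adjusted p = 0.0184) and the condensin subunit Ncaph by 0.91 ± 0.07 (adjusted p = 0.00777). Smc4, the core of the same condensin complex, rose by 0.75 ± 0.11 (adjusted p = 0.0223 in limma). The repair nuclease genes Eme1 and Exo1 fell by 0.90 ± 0.13 and 0.81 ± 0.13 (adjusted p of 0.0215 and 0.0246 in limma), and Xrcc1 and Fanci, of single-strand break and crosslink repair, by 0.66 ± 0.11 and 0.61 ± 0.09 (adjusted p of 0.0262 and 0.0211 in limma).

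**Figure D5:**
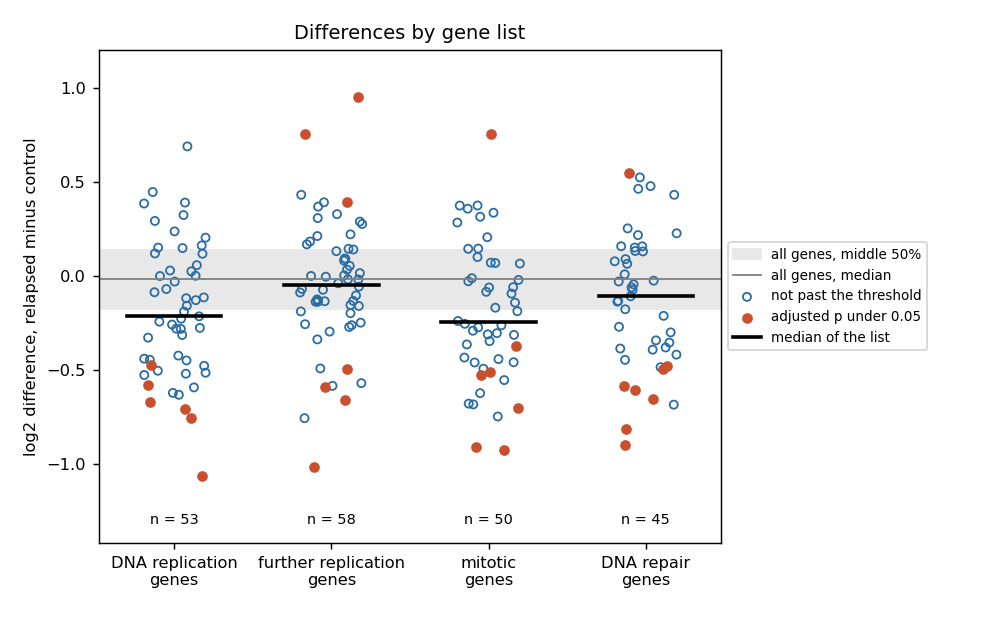
Log2 differences, relapsed minus control, of the genes in 4 lists (points; filled where the adjusted p in limma was under 0.05), with the median of each list (bar) and the median and middle 50% of all genes (line and band). The medians were -0.22 for the 53 DNA replication genes, -0.05 for 58 further replication genes, -0.25 for 50 mitotic genes and -0.11 for 45 DNA repair genes, beside -0.02 for all genes.

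Mki67, which encodes the proliferation antigen Ki-67, was not called. It read 10.41, 10.34 and 10.35 in controls and 10.35, 10.33 and 10.63 in relapsed tumours. Apart from relapsed 3, the arrays lay within 0.1 of each other. The difference of Mki67 was 0.07 ± 0.10 (adjusted p = 0.704 in limma), and its sign turned with each array centred on its median. Top2a, the topoisomerase of dividing cells, differed by -0.26 ± 0.19 (adjusted p = 0.440 in limma) with overlapping groups, and its sign turned to 0.0404 with the mean of its probe sets. Myc differed by -0.19 ± 0.27 (adjusted p = 0.711 in limma), with control 2 highest at 11.42. Cdkn2a, a tumour suppressor locus, read 9.62, 9.51 and 9.64 in controls and 7.84, 9.17 and 9.36 in relapsed tumours. Relapsed 1 was the low array for Cdkn2a, and its difference of -0.80 ± 0.41 was not called (adjusted p = 0.293 in limma). Cdkn1a was not analysed here.

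Markers of other cells moved between the groups alongside the replication genes. Of 9 measured markers of glioma and neural progenitor cells, 4 fell (Olig1, Olig2, Bcan and Fabp7), and the mean of the list relative to its average ran from 0.50 to 1.07 in controls and from -0.82 to -0.58 in relapsed tumours. Olig2, which defines the oligodendrocyte lineage in many gliomas, read 10.54, 11.42 and 10.55 in controls and 7.69, 7.71 and 6.48 in relapsed tumours. The other 5 neural markers were not called, with differences of -1.21 for Sox2, -0.72 for Nes, -0.14 for Sox10, 0.09 for Cspg4 and 0.64 for Pdgfra. Of 12 macrophage markers, 10 rose, with list means from -0.93 to -0.56 in controls and from 0.54 to 1.04 in relapsed tumours. Of 10 fibroblast markers, 8 rose, with list means from -1.02 to -0.48 and from 0.52 to 1.30. None of 8 endothelial and 6 lymphocyte markers was called. Single arrays stood apart for skeletal muscle markers (control 2, at 2.05), adipocyte markers (relapsed 1, at 2.57) and keratinocyte markers (relapsed 3, at 1.21). Over the same arrays the mean of the 53 DNA replication genes was 0.16, 0.07 and 0.06 in controls and -0.02, -0.20 and -0.07 in relapsed tumours. Relapsed 1 was the highest relapsed array for the macrophage and fibroblast lists, and relapsed 2 was the lowest array for the replication genes. The order of 3 relapsed arrays cannot show how these lists relate. The part of these other cells in the replication gene differences was not tested.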

How the data were processed

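Total RNA of 6 mouse tumours was measured on Affymetrix arrays, 1 array each, in 3 control and 3 relapsed gliomas. The authors deposited 1 log2 value per probe set and array, between 1.93 and 14.2. Per the submitters' processing notes, the affy package was used. How background was corrected and arrays were normalized and summarized was not stated in the sources used here. Array medians ran from 6.58 to 6.62 in controls and from 6.67 to 6.68 in relapsed tumours. With medians this close, a change shared by most transcripts cannot be seen. Of 35556 probe sets, 21789 were annotated with 1 gene symbol. The one with the highest mean stood for each of 19938 genes. The DNA replication genes, their roles and the other lists were chosen with earlier results of these data known.

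Differences, relapsed minus control, were modelled in limma 3.58.1 under R 4.3.3 (lmFit and eBayes, two-sided, 4 residual degrees of freedom, prior 1.53), with Benjamini-Hochberg adjustment over all genes. The code was tested on simulated data. Full values are given for called members and the member with the smallest p in each role. For the other lists up to 4 called genes with the largest difference are named, and Mki67, Top2a, Cdkn1a, Cdkn2a, Rb1 and Myc in any case. Other genes were named after their values were seen. The alternatives were leaving out the dimmer 50% of genes, quantile normalization, median centring, the mean of a gene's probe sets, all probe sets tested, trended robust moderation, array weights, the replicate number as a block and leaving out each array. The number of arrays limits the precision.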

Additional observations from a re-analysis of the deposited data

How the results depend on the processing

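The count of DNA replication genes called lower, 6 with the deposited values, was 10 of 49 when the dimmer 50% of genes were left out (11.7% of all genes there), 11 with each array centred on its median (8.46%), 13 with array weights (7.65%), 4 with all probe sets tested (3.59%; Cdt1 and Pold2 lost their calls), 5 with trended robust moderation (4.47%; Uhrf1 lost its call) and 0 to 4 with 1 array left out. The count called higher was 0 under every alternative run, beside 3.49% of all genes with median centring and 8.52% with the dimmer 50% left out. With 1 array left out, 120 to 380 of all 19938 genes were called higher, and 0 with the replicate number as a block. The median difference of -0.22 ran from -0.26 to -0.13 with 1 array left out, the last without relapsed 2. Further replication genes called, 7 in all, numbered 4 with all probe sets tested and 0 to 6 with 1 array left out, and mitotic and DNA repair genes called, 15 in all, numbered 1 to 8 with 1 array left out. Calls over all genes fell too, from 1826 with the deposited values to 1232 with all probe sets tested and to 264 to 975 with 1 array left out. Replicate numbers 1 and 2 occur in both groups, but no label pairs them. With the number as a replicate block, control 4 and relapsed 3 had no partner. No gene on the array was called in that fit, so the counts of these lists were 0, and the median difference of the DNA replication genes was -0.30. The cause of these shifts was not tested. Over all genes, 1091 were called lower and 735 higher with the deposited values, and 1687 and 696 with median centring. Deviations of same-numbered arrays correlated at -0.34 and -0.25 over genes. Differences of genes that were not called turned: Mki67 to -0.00503 with median centring, to -0.0361 with the replicate block and to -0.0280 without relapsed 3 (left-out range -0.0280 to 0.124), Top2a to 0.0404 with the mean of its probe sets, and Myc to 0.00738 with array weights and 0.118 without control 2 (left-out range -0.411 to 0.118). For the 30 genes named by rule, 312 values under alternatives kept their direction and their side of the threshold, 101 kept the direction only, and those 6 turned. All 101 were lost calls of genes called with the deposited values. The 312 include genes that were not called with the deposited values and stayed so under every alternative. Timeless was itself among the dimmer 50% and had no value there. The number of arrays and the low signal of some probe sets limit what can be seen.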
